A study of Saccharomyces cerevisiae with 2 samples.

Results

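The genes for the cytosolic ribosomal proteins of budding yeast were examined for the binding of Vid22, a BED finger DNA-binding protein that the study linked to the stability of G-quadruplex (G4) DNA, structures that guanine-rich strands can fold into. Members were the protein-coding genes whose RefSeq symbol begins with RPL, RPS or RPP followed by a digit and whose product is a cytosolic ribosomal protein. Of 138 matching symbols, RPP1 was left out because its product belongs to RNase P and RNase MRP, which left 137 members of 6002 nuclear protein-coding genes. The members comprised 81 genes of the large subunit, 5 of them RPP genes of the stalk, and 56 genes of the small subunit. They lie on 15 chromosomes, 89 of them have an intron, and 118 form 59 complete A and B pairs.

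Vid22 was mapped by ChIP-seq in a BY4741-derived strain in which VID22 carries a 13Myc tag, and a wild type strain with no tag served as negative control. Cells of both strains were pre-grown overnight in YEP, cross-linked with formaldehyde and immunoprecipitated with an anti-MYC antibody by the study's methods, although the control's own labels list no antibody. Each library pooled the DNA of 2 ChIP experiments and each strain has 1 library, so there is no replicate, no p-value is given, and the comparisons below describe 1 list of peaks. The 95% Wilson intervals beside the shares cover the counting of genes or peaks only. The numbers of reads in each library and each peak are not in the list, so the depth behind a peak is unknown here. No transcript level was measured in these data.

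Ribosomal protein genes are among the most heavily transcribed genes of growing yeast, and their output is matched to nutrient supply through the TOR and protein kinase A pathways. In Saccharomyces cerevisiae most of their promoters are bound by the general regulatory factor Rap1, which recruits Fhl1, Ifh1 and Sfp1. In Candida albicans the same promoters depend on Tbf1, a factor that binds TTAGGG repeats and that forms a complex with Vid22 in budding yeast. Introns are rare in budding yeast but common in this family, where they are long and usually sit just behind the start codon. In these annotations the intron of a member had a median length of 408 bp (147 to 561 bp), against 97 bp in other genes with an intron, and the first exon of a member had a median of 15 bp.

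A member was at a peak when a Vid22 peak shared at least 1 bp with its window. The window was the gene body and the 500 bp upstream of the start codon. Only peaks with −log10 q of at least 9 were used. This threshold kept 445 of 811 deposited peaks. It is 1 reading of the study's notation, a value of 10 being the other. The paper reports fewer peaks than were kept here, so the kept list is not the study's own set. Which reading the study used was not settled. Of the 137 members, 49 were at a peak (35.8%, interval 28.2 to 44.1%), against 11.8% of all nuclear protein-coding genes. The summit, the position of highest enrichment, lay inside the window of 44 members (32.1%), against 6.81% of all genes. The members' windows were not longer than those of other genes, with a median of 1271 bp against 1700 bp over all genes. Peaks covered 19.6% of the bases of the members' windows and 4.68% of those of other genes. The 49 members met 51 peaks, 11.5% of the list, with RPL13B and RPS16A sharing 1 peak and RPS4A, RPS4B and RPL40B having 2 each.

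Genes of both subunits were at a peak with overlapping intervals. In the large subunit 30 of 81 genes were at a peak (37.0%, interval 27.3 to 47.9%), and in the small subunit 19 of 56 (33.9%, interval 22.9 to 47.0%). Of the 5 stalk genes, which encode the acidic proteins that recruit translation factors and their anchor, RPP1A and RPP2A were at a peak. Genes with an intron were at a peak in 28 of 89 cases (31.5%, interval 22.8 to 41.7%), and genes without one in 21 of 48 (43.8%, interval 30.7 to 57.7%). The intervals of the intron classes overlap. At this threshold the direction differed between the subunits. In the large one the shares were 28.3% with an intron (interval 18.0 to 41.6%) and 53.6% without (35.8 to 70.5%). In the small one they were 36.1% (22.5 to 52.4%) and 30.0% (14.5 to 51.9%). Among genes in pairs they were 29.8% and 32.4%. The direction in the small subunit depended on the threshold. With all deposited peaks its shares were 66.7% with and 75.0% without an intron, and those of the large one 75.5% and 75.0%. RPS0B, RPS13, RPS21A and RPS30A, all with an intron, had −log10 q of 9.02 to 9.73. Among genes outside the family, 8.79% of 182 with an intron and 11.3% of 5683 without one were at a peak.

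**Figure D1:**
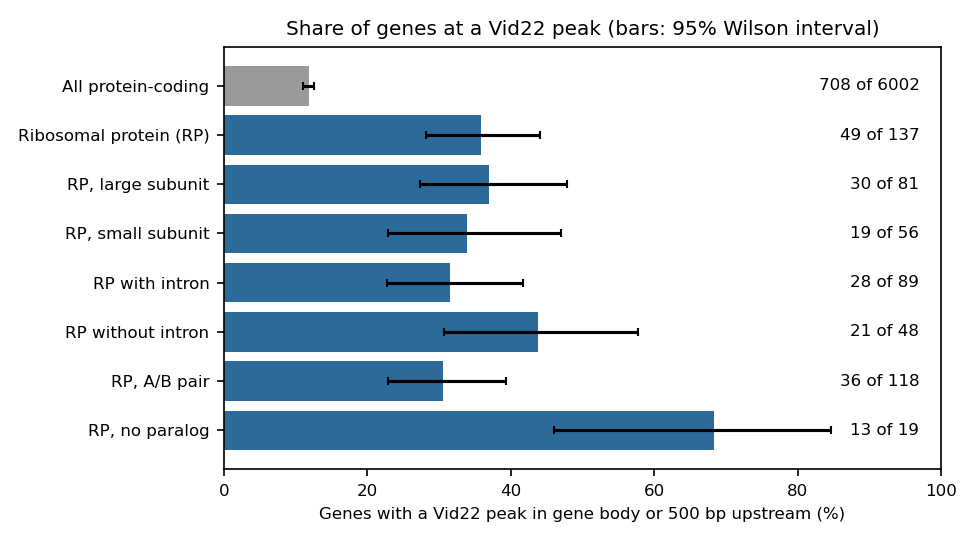
Share of genes (%) with a Vid22 peak in the gene body or the 500 bp upstream of the start codon, for all nuclear protein-coding genes and for classes of ribosomal protein (RP) genes, with 95% Wilson intervals as error bars and the counts at the right. Ribosomal protein genes stand at 35.8% against 11.8% of all genes, and those with no paralog stand highest, at 68.4%.

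The peaks at ribosomal protein genes were weak. Fold enrichment, which sets the Vid22-13Myc read pileup against the control at the summit, had a median of 1.66 at the 49 members and of 2.44 at other genes at a peak. Of the members, 46 lay between 1.42 and 2.10, with −log10 q from 9.02 to 31.8 and a median of 12.0. At other genes at a peak, 46.3% had a fold above 3. The highest fold of the 46 was at RPL22B (chrVI:64243-64932), for a large subunit protein of the eL22 family, and its value of 2.10 (−log10 q of 31.8) ranked 148 of the 445 peaks. The next were RPS4B (chrVIII:504476-505530), for protein eS4 of the small subunit, at 1.95 and RPS17A (chrXIII:225889-226697), for protein eS17, at 1.92. RPL41A (chrIV:130407-130484), for a very short peptide of the large subunit, stood at 1.85, and RPS12, RPL38 and RPL12A each stood at 1.83. The lowest were RPL28, where cycloheximide resistance mutations map, at 1.42, RPL8A at 1.46, RPS13 at 1.48, and RPS0B and RPS9A at 1.50.

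Only 3 members had a fold above 3, and in each case the summit lay outside the member, near the start of a neighbour. RPL9A was reached by a peak of 4801 bp with a fold of 6.62 whose summit was 227 bp from the start of TIP20, a vesicle tethering gene. RPL16A was reached by a peak of 7190 bp with a fold of 6.44 whose summit was 241 bp from the start of FKH1, a forkhead transcription factor gene. RPL20A was reached by a peak of 4650 bp with a fold of 5.87 whose summit was 212 bp from the start of CUS1, a splicing factor gene. These peaks extend over the members, and no summit of the list with a fold above 3 was placed within a member's window.

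**Figure D2:**
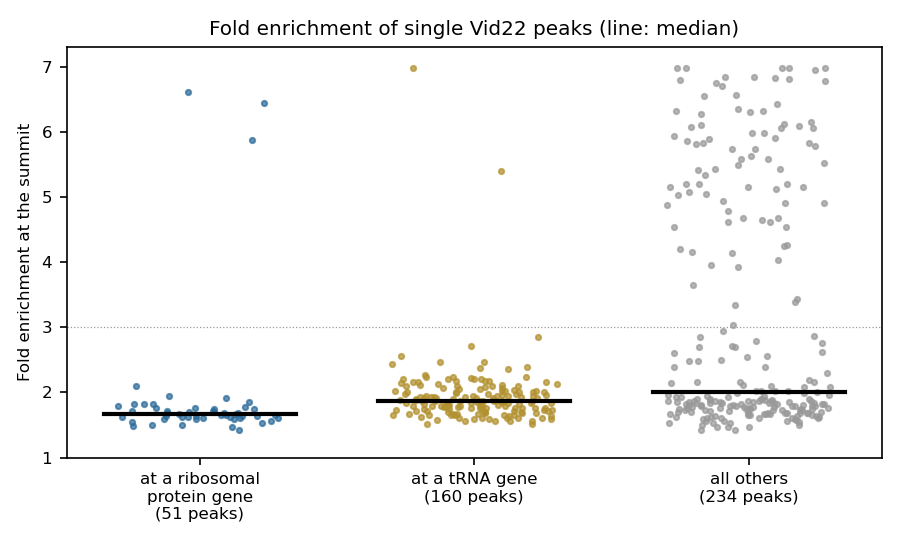
Fold enrichment at the summit of each of the 445 peaks (1 point a peak, horizontal line at the median), for 51 peaks at ribosomal protein genes, 160 at tRNA genes and 234 others. The dotted line marks a fold of 3, above which only 3 of the 51 peaks at ribosomal protein genes lie.

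With −log10 q of at least 10, 42 members (30.7%) were at a peak, against 11.1% of all genes. The share was 23.6% of the members with an intron and 43.8% of those without one. At a still stricter threshold the share of members was no longer above that of all genes. At −log10 q of at least 20, 8 members remained at a peak (5.84%, interval 2.99 to 11.1%), against 7.31% of all genes. The 8 were RPL9A, RPL16A and RPL20A with their neighbours' summits, RPS4B, and RPL22B, RPS17A, RPS12 and RPL10, the last for a protein of the peptidyl transferase region. The RPS4B summit lies in a promoter shared with MNL1 and nearer the start of MNL1. In the other direction, when every deposited peak was taken, 100 of 137 members were at a peak (73.0%, interval 65.0 to 79.7%), against 17.3% of all genes. The 51 members reached only by peaks under the threshold had folds of 1.30 to 1.62, with a median of 1.44, and −log10 q of 1.99 to 8.96. The other 37 members overlapped no deposited peak.

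At most bound members the summit lay inside the gene. It was in coding sequence at 33 of 49 members (67.3%, interval 53.4 to 78.8%), in the promoter, here the 500 bp upstream of the start codon, at 8, in an intron at 3 and outside the window at 5. The 659 other genes at a peak had 6.83% of their summits in coding sequence, 46.9% in the promoter and none in an intron. The remaining 46.3% lay outside the window, against 10.2% at members. With peaks of a fold above 3 left out, the coding share was 71.7% at 46 members and 12.4% at 354 other genes. Outside summits were then 4.35% and 41.2%. Genes with such summits are counted in these shares, which lowers the coding share of other genes more than that of members. Of the 78 protein-coding genes with the summit of their highest peak in their own coding sequence, 33 (42.3%) were ribosomal protein genes. Coding summits made up 14 of 19 in the small subunit and 19 of 30 in the large subunit. The 51 members reached only by weaker peaks had a like split, with 31 coding, 9 promoter and 4 intron summits and 7 outside.

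Among genes of the small subunit, coding summits were found at RPS12 (fold 1.83, 262 bp past the start codon) and RPS3 (1.63, 280 bp), whose protein lines the mRNA entry channel. RPS20 (1.64, 220 bp), for a protein of the head of the subunit, and RPS31 (1.60, 221 bp), made as a fusion to ubiquitin, were others. Among genes of the large subunit, coding summits were found at RPL10 (1.72, 419 bp), RPL3 (1.53, 627 bp), for a protein next to the peptidyl transferase centre, and RPL5 (1.64, 775 bp), for the protein that binds 5S rRNA. RPL12A (1.83, 298 bp) and RPL12B (1.70, 220 bp), which encode the same protein at the base of the stalk, and the stalk genes RPP1A (1.71, 173 bp) and RPP2A (1.65, 133 bp) also had theirs in coding sequence. The peaks were about as long as the genes. At the 46 members with a fold of at most 3 the peak covered a median of 93.4% of the gene and the whole gene in 18. The summit was not at the gene's start. Over the 36 summits in coding sequence or an intron it stood at a median of 64.8% of the gene's length, between 34.4 and 95.4%, and 28 of the 36 lay beyond 50% of it. These were 16 of 18 in genes with an intron and 12 of 18 in genes without one (66.7%, interval 43.7 to 83.7%, which includes 50%).

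**Figure D3:**
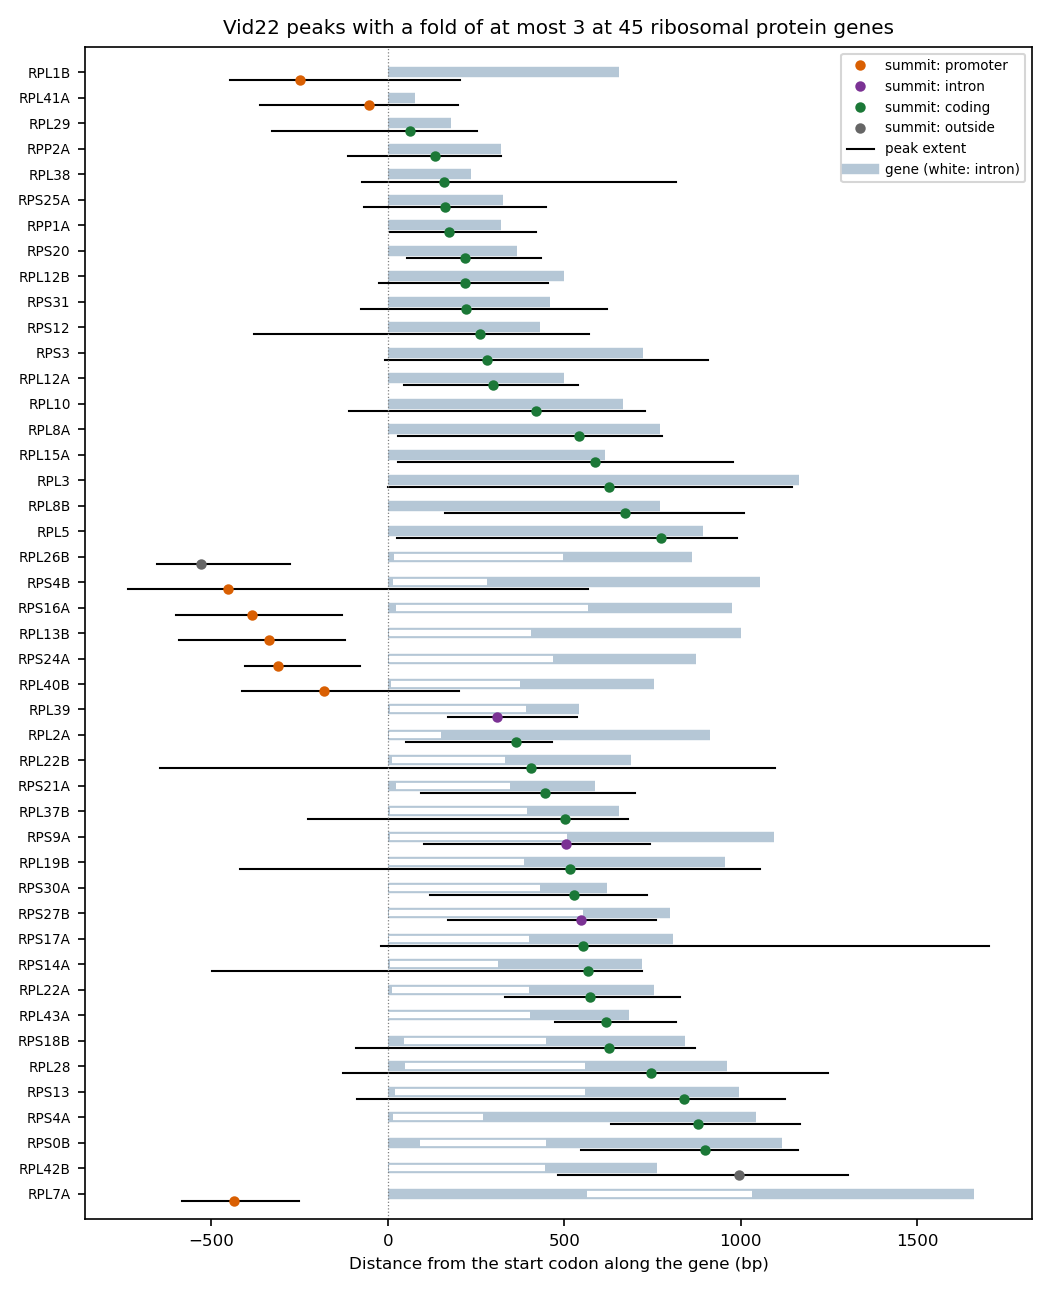
Peaks at 45 of the 46 ribosomal protein genes with a fold of at most 3, drawn along each gene in bp from the start codon (dotted line), with genes without an intron at the top. Blue bars are genes with the longest intron in white, black lines the extent of the highest peak, and points its summit, which is in coding sequence at 32 of the genes drawn, in the promoter at 8, in an intron at 3 and outside at 2.

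In genes with an intron the summits gathered in the last exon. All 15 coding summits of such genes lay behind the last intron, at a median of 180 bp past its end and between 73 bp (RPL22B) and 610 bp (RPS4A). These genes begin with a very short exon, which leaves little coding sequence in front of the intron. The 3 intron summits lay close to the 3′ end of the intron. RPL39, for a protein of the exit tunnel, had its summit 81 bp before the intron's end, with a fold of 1.74. RPS27B, for a zinc finger protein of the small subunit, had it 4 bp before the end of a 550 bp intron, with a fold of 1.79. RPS9A, for protein uS4, which guards decoding accuracy, had it 2 bp before the end of a 501 bp intron, with a fold of 1.50. The sequences around the last pair of summits are given because the called summit falls next to the splice acceptor. The peaks themselves span 590 bp at RPS27B and 640 bp at RPS9A, and how closely their summits are placed was not tested. Intron bases are in lower case and exon bases in capitals, each on the gene's own strand (sacCer3, chrVIII:148081-148161, minus strand, and chrXVI:405415-405495, plus strand). Both introns end in ag, the usual acceptor dinucleotide.
RPS27B: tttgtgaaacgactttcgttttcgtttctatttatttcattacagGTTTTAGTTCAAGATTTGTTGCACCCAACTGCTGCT
RPS9A: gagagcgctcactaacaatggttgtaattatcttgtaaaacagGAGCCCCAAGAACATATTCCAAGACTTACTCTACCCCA

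Where the summit did lie in a promoter, its distance to the nearest match to the core of the Rap1 site, ACCCNNACA on either strand, was measured. The 8 promoter peaks with a fold of at most 3, taken with the weaker peak of RPS4A and with RPL13B and RPS16A counted once, had folds of 1.62 to 1.95. A match lay within 100 bp of the summit in 5 of the 8 (62.5%, interval 30.6 to 86.3%). It was 9 bp away at the shared RPL13B and RPS16A promoter, 12 bp at RPS4B, 21 bp at RPS24A, 58 bp at RPL1B and 59 bp at RPL40B, whose product is a ubiquitin fusion. At RPL7A it was 188 bp away, and RPL41A and RPS4A had none in their 500 bp. Of the 9 promoter summits at members reached only by weaker peaks, 3 had a match within 100 bp (33.3%, interval 12.1 to 64.6%), RPS11B, RPL35B and RPL41B. Of the other 6, RPS18A, RPS22B and RPS29B had none in their 500 bp. Promoter summits of other genes with a fold of at most 3 had a match within 100 bp in 6 of 116 cases (5.17%), and summits inside members in 1 of 38. The shares are not like for like, because promoters of members hold the motif more often to begin with. The rate at other positions of these promoters was not measured. Over whole promoters the motif did not separate members at a peak from the rest, which include members at weaker deposited peaks. It was found upstream of 39.4% of members, 38.8% of those at a peak and 39.8% of the rest, against 5.48% of all protein-coding genes. Most members at a peak had their summit in coding sequence. Of the 8 members whose highest peak had a promoter summit, 7 held the motif upstream (87.5%, interval 52.9 to 97.8%).

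The promoter stretches that hold both summit and match are printed on the strand of the named gene, with the match in capitals. They come from sacCer3 at chrVIII:505942-506022 (RPS4B, minus strand), chrXIII:551503-551583 (RPS16A, plus), chrV:305972-306052 (RPS24A, plus), chrVII:254330-254432 (RPL1B, plus) and chrXI:618890-618993 (RPL40B, minus). At RPS16A and RPL40B the capitals are the reverse complement of the motif, since the match lies on the other strand.
RPS4B: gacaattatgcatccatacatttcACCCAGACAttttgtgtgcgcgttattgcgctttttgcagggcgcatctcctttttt
RPS16A: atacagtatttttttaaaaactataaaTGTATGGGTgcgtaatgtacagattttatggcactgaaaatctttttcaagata
RPS24A: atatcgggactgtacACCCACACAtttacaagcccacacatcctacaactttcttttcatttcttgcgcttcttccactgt
RPL1B: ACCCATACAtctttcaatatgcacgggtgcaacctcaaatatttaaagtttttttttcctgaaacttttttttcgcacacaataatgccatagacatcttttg
RPL40B: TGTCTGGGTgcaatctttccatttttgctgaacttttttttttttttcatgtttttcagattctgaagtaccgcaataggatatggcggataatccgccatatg

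The 3 members with 2 peaks each carried 1 in the promoter and 1 inside the gene. RPS4B had a fold of 1.95 at 452 bp upstream and 1.69 at 924 bp into the gene. RPS4A, its near-identical paralog, had 1.62 at 411 bp upstream and 1.78 at 879 bp into the gene. RPL40B had 1.72 at 180 bp upstream and 1.68 at 626 bp into the gene. In each of the 3, the summits inside the gene lay in coding sequence behind the intron.

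The members that exist as a single copy were at a peak more often than those of pairs. Of 19 genes without a paralog, 13 were at a peak (68.4%, interval 46.0 to 84.6%), and of 118 genes in pairs 36 (30.5%, interval 22.9 to 39.3%). The intervals, which cover only the counting of genes in 1 list of peaks, do not overlap. The share over all nuclear protein-coding genes was 11.8%. Peaks covered 42.8% of the window bases of the single-copy genes and 16.3% of those of the paired genes. All 13 had their summit inside the gene, 12 in coding sequence and RPL39 in its intron. They included RPL3, RPL5, RPL10, RPL28, RPL29, RPL38, RPL39, RPS3, RPS12, RPS13, RPS20 and RPS31, and the folds of the 13 were 1.42 to 1.83. The other 6 were RPL25, RPL30, RPL32, RPP0, RPS2 and RPS15, and each lay at a weaker deposited peak, from a −log10 q of 4.45 at RPS2, for a protein of the mRNA entry site, to 8.63 at RPP0, the anchor of the stalk. Thus all 19 were at some deposited peak, against 68.6% of the genes in pairs. The gap was present with and without an intron. Without one, 10 of 14 single-copy genes and 11 of 34 paired genes were at a peak, and with one, 3 of 5 and 25 of 84, with intervals that overlap in both splits.

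**Figure D4:**
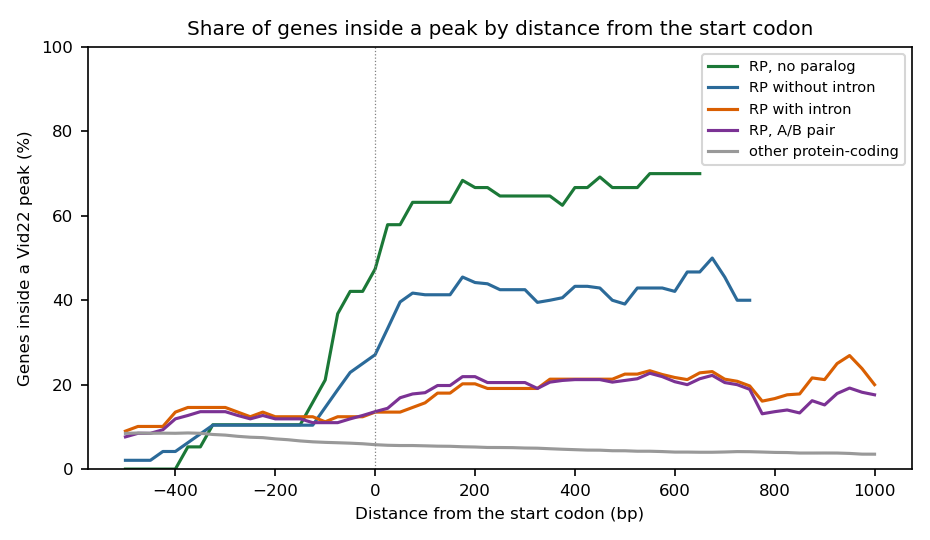
Share of genes (%) whose base at a given distance from the start codon (bp) lies inside a Vid22 peak, for classes of ribosomal protein (RP) genes and for other protein-coding genes, drawn where at least 10 genes reach that far. Other genes fall from 8.46% at 500 bp upstream to 3.53% at 1000 bp into the gene, while ribosomal protein genes without an intron rise from 2.08% at 500 bp upstream to 44.2% at 200 bp into the gene.

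In 4 of the 59 pairs both genes were at a peak (6.78%, interval 2.67 to 16.2%), in 28 only 1 was, and in 27 neither was. The 4 were RPL8 with folds of 1.46 (A) and 1.65 (B), RPL12 with 1.83 and 1.70, RPL22 with 1.66 and 2.10, and RPS4 with 1.78 and 1.95. In 16 of the 28 pairs with 1 gene at a peak, the other gene lay at a deposited peak under the threshold, so that part of the split is a matter of where the threshold stands. RPS21A and RPS21B, for protein eS21 of the small subunit, fell on opposite sides of it with folds of 1.60 and 1.59 and −log10 q of 9.02 and 8.96. When all deposited peaks were taken, both genes were at a peak in 29 pairs, 1 in 23 and neither in 7. A wider gap was seen at RPL41, where RPL41A had a fold of 1.85 and RPL41B 1.39, and at RPS14, for a protein of the platform, with 1.76 at RPS14A and 1.33 at RPS14B. RPS17B had no deposited peak, while RPS17A stood at 1.92.

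**Figure D5:**
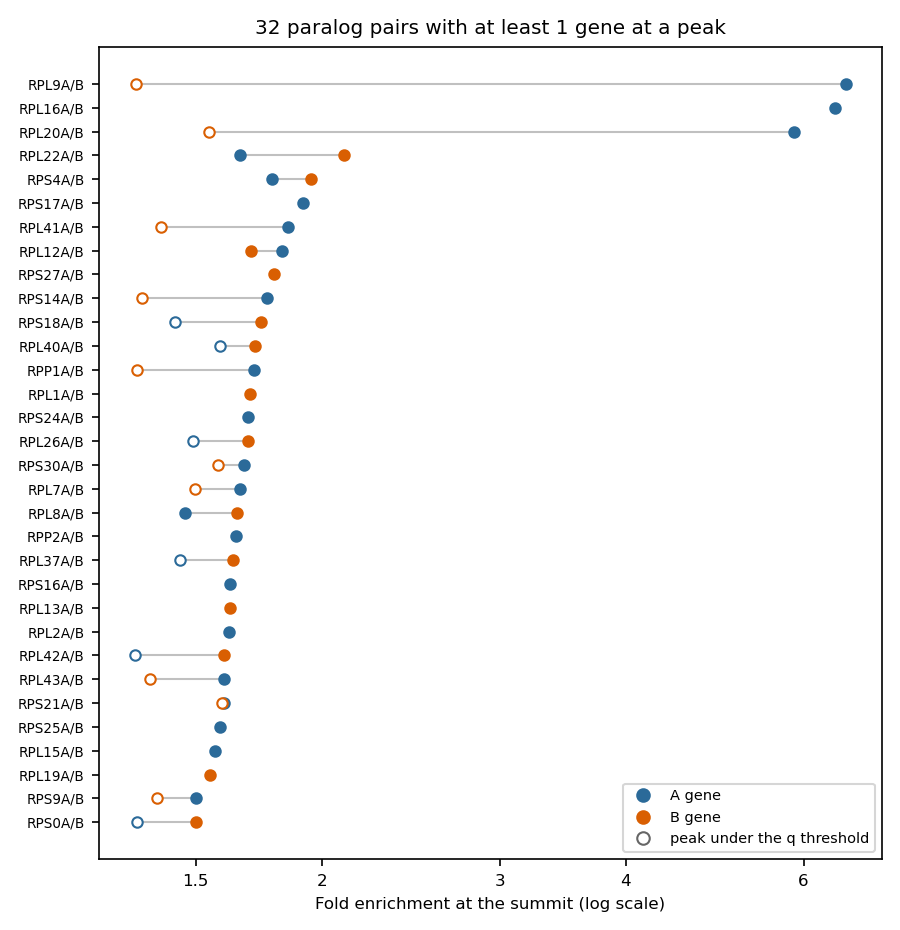
Fold enrichment at the summit (log scale) for the A gene (blue) and the B gene (orange) of the 32 pairs with at least 1 gene at a peak. Filled points are peaks of −log10 q of at least 9, open points weaker deposited peaks, and a pair with 1 point has no deposited peak at the other gene. Both points are filled in 4 pairs.

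Paralogs differ from single-copy genes in how many reads can be placed on them, because reads with more than 1 best alignment were not kept. All positions of the single-copy genes' windows start a 50-mer found once in the genome, 50 bp being the read length. In pairs the median was 98.0%, with a range of 52.4 to 100%, and the coding sequences of the 2 copies were identical at a median of 93.2% of positions. Under 80% of positions were unique in 12 members, among them the pairs RPL1, RPL4, RPL11, RPS4 and RPS6, and 3 of the 12 were at a peak (RPL1B, RPS4A and RPS4B). Of these, RPL1B (57.5% unique) and RPS4B (77.8%) also had a promoter summit with a Rap1 match within 100 bp. How far uniqueness bears on where those summits lie was not tested. With these 12 left out, 46 of 125 members were at a peak (36.8%). Within the 28 pairs with 1 gene at a peak, that gene had the more unique window in 9, the less unique one in 6 and an equal one in 13. The part of uniqueness in the gap between single-copy and paired genes was not tested.

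The peaks at members differed in their surroundings from the rest of the list. None of the 51 overlapped a tRNA gene, against 160 of the 394 peaks at no member (40.6%). A snoRNA gene was overlapped by 3 of the 51, with SNR189 at RPS14A, SNR39B upstream of RPL7A and SNR32 beyond the end of RPL42B, or 5.88% against 4.49% of all peaks. The summit was inside a protein-coding gene at 38 of the 51 (74.5%, interval 61.1 to 84.5%), against 14.7% of the peaks at no member. With a fold of at most 3 the share was 38 of 48 peaks at members (79.2%, interval 65.7 to 88.3%). Among peaks at no member in that range with no tRNA gene, the nearest in strength, the share was 36.2% of 149. Peaks at members overlap a gene window by definition, while 24 of the 149 overlapped none.

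The sequence TAGGG, the core of the site of Tbf1, was rare at these summits. On both strands, it lay within 100 bp of the summit at 3 of 48 peaks at members with a fold of at most 3. These were RPL22B, RPS27B and RPL29 (6.25%, interval 2.15 to 16.8%). The share was 22.5% of the peaks at no member in that range, 28.9% of the 149 of them at no tRNA gene, and 35.3% of all 445. The groups were not matched for where the summit lies. The summits of the neighbours' peaks that reach RPL9A, RPL16A and RPL20A each had at least 1 TAGGG. In the 500 bp upstream, 28.5% of members held it, against 33.6% of all protein-coding genes. The stretch from the summit to TAGGG at RPL22B, the member with the highest fold among those with a summit of their own, is in the last exon (sacCer3, chrVI:64459-64567, minus strand) with the motif in capitals.
RPL22B: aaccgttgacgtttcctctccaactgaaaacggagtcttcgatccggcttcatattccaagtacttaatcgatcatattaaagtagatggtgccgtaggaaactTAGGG

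Predicted G4 elements, 4 tracts of at least 3 G with loops of 1 to 25 bases on either strand, were near few of these peaks as well. An element lay within 200 bp of 3 of the 48 peaks at members with a fold of at most 3 (6.25%). The share was 15.3% of the peaks at no member in that range, 26.8% of the 149 of them at no tRNA gene, and 20.2% of all peaks. These groups were likewise not matched for where the summit lies. The 3 were at RPL41A, RPL26B and RPS21A. The elements are printed 5′ to 3′ on their guanine-rich strand with the runs of G in capitals. At RPL41A the element (sacCer3, chrIV:130621-130683, plus strand) lies within the peak, 85 bp from the summit. At RPL26B (chrVII:555467-555515, minus strand) it lies within the peak, 185 bp from a summit that stands 530 bp upstream of the start codon. At RPS21A (chrXI:552493-552533, minus strand) it lies 136 bp beyond the peak. A second element at RPL41A lies 178 bp from the peak.
RPL41A: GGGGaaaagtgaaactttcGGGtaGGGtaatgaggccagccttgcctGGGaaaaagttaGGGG
RPL26B: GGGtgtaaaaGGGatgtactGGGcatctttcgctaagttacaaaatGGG
RPS21A: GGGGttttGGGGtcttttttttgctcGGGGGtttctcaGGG

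Sites of other general regulatory factors were also counted in the 500 bp upstream on both strands. The Reb1 core TTACCCG was found at 5.11% of members and 10.1% of all genes, and the Abf1 consensus at 42.3% and 46.1%. A match is a run of letters and not a bound site.

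Genes that act with the ribosome, and other lists set beside them, were at a peak about as often as all protein-coding genes (11.8%). The lists are too short to place their shares closely. Of 24 genes for regulators of the family and partners of the ribosome, 3 were at a peak (12.5%, interval 4.34 to 31.0%). TBF1, for the telomere repeat-binding factor, had a fold of 6.31 with its summit 193 bp upstream of its start codon. SCH9, for the kinase that carries TOR signals to these genes, was reached by a peak of fold 6.09 with its summit outside the gene's window. That summit, at chrVIII:512294, lay 2931 bp past the SCH9 start codon. It falls in the predicted G4 element upstream of SKN7 that the paper studied. ASC1, for a scaffold protein of the small subunit whose symbol keeps it out of the family here, had a coding summit 386 bp past the start codon with a fold of 1.56, within the range of the members. Of 10 translation elongation factor genes, HYP2, for the factor eIF5A, was at a peak (10.0%, interval 1.79 to 40.4%), with a fold of 2.01 and its summit 382 bp upstream. Of 18 glycolysis genes, some but not all heavily transcribed by general knowledge, HXK2 (1.87) and GPM1 (1.50) were at a peak, both with coding summits (11.1%, interval 3.10 to 32.8%).

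The genes for the ribosome of mitochondria, a separate set encoded in the nucleus, were at a peak in 10 of 81 cases (12.3%, interval 6.85 to 21.3%), against 11.8% of all genes. Their peaks were of another kind. The median fold was 4.63, 6 of the 10 were above 3, 7 had promoter summits, 3 had summits outside the window and none had one in coding sequence. MRPL16 (5.90), MRPL11 (5.58), PET123 (5.20) and MRPL15 (5.16) had summits between 171 and 213 bp upstream of their start codons. The interval of their share at a peak lies below that of the cytosolic set.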

How the data were processed

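The peaks of the Vid22-13Myc library over the untagged control were analysed. The authors aligned 50 bp reads with bowtie, kept reads with 1 best alignment, discarded PCR duplicates (samtools rmdup) and ran MACS2 with its defaults (versions not given in the sources used here). The deposited fold is the ratio of pileup to local control at the summit. The −log10 p-value and q-value of each deposited peak belong to its summit, and the deposited score is −log10 q times 10. The lowest −log10 q listed was 1.34, and the study's false discovery rate threshold, whose notation could also mean 10, was applied as at least 9. Gene models were those of RefSeq for sacCer3, the build of the file. A gene took its highest peak by fold, and introns of at least 20 bp were counted. Every member at a peak could be named, with values for the 10 highest and 5 lowest folds, all intron summits, split pairs, snoRNA overlaps, shared peaks and bound genes of the lists. Members and lists were chosen with earlier results of these data known. Python 3.11.15 with numpy 2.4.6, pandas 2.3.3 and matplotlib 3.10.9 was used, and peak assignment was tested on simulated data with 200 planted peaks, all found. Some items are not reported here. The 10 alternatives tried are given in the closing section.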

Additional observations from a re-analysis of the deposited data

How the results depend on the processing

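Of 109 recomputed values, 89 stayed within the main value's 95% interval, the middle 50% of folds or 1.5 times the coverage. With −log10 q of at least 20, 5.84% of members, 6.17% of large and 5.36% of small subunit genes, 5.62% of genes with and 6.25% without an intron were at a peak, and 0.0% of pairs had both genes. Intron summits then made up 0.0% and coding summits 50.0%, the median fold was 2.03 and 4.99% of window bases were covered. With all deposited peaks the shares were 73.0%, 75.3%, 69.6%, 71.9%, 75.0% and 49.2% in the same order, the median fold was 1.56 and coverage 38.6%. Promoter summits fell to 6.38% with 250 bp upstream and to 0.0% with the gene body only, by construction. The threshold of −log10 q of at least 10, merged peaks, summits required in the window, peaks at tRNA or snoRNA genes left out and members under 80% unique left out moved none of the values, and neither did leaving out peaks with a fold above 3, which was chosen after seeing the data. No paired analysis was possible because each condition has 1 library. Depth is unknown, and peaks near the threshold, where most members lie, are the least certain.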
